A study of Mus musculus with 6 samples.

Results

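F11r, the gene of the junctional adhesion molecule JAM-A, lies on mouse chromosome 1 among immunoglobulin-family receptors and unrelated housekeeping genes, and the 43 named neighbors around it are described here. They are the genes of a fixed list that runs from Sdhc on one side of F11r, through the Slam cluster, to Slamf8 on the other, and their place on the list rests on position. A probe set paired with exactly 1 gene symbol was found for 42 of them, and each of the 42 had only 1 such probe set, out of 19938 genes measured in this way. Tstd1 had none and is not described further, and Cd244 was matched through its gene identifier to the symbol Cd244a. In the order of genes on the GRCm38.p6 assembly, 18 measured neighbors lie before F11r and 24 after it, and 4 measured genes between the outermost ones (Alyref2, Atp1a4, Igsf9 and Cfap45) are not on the list.

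The samples were 6 early mammary tumors. All came from mice with a transgene for polyoma virus middle T antigen (PyVmT) driven by the mouse mammary tumor virus promoter (MMTV), which is active mainly in mammary epithelium. Tumors 5333, 5346 and 5347 came from MMTV-PyVmT/JAM-A-/- mice and tumors 5369, 5370 and 5393 from MMTV-PyVmT/JAM-A+/+ mice, so both groups share the oncogene and differ in the labels only in JAM-A. JAM-A+/+ littermates served as controls in the study's methods, while the strain background of the mice and the part of F11r removed in the null allele were not given in the sources used here. Whether each tumor is from its own mouse is not stated in the labels, so p-values reflect tumor-to-tumor spread alone, which may be technical. Values are given below in the tumor order just stated.

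The Slam receptors are a family of related immunoglobulin-type proteins on leukocytes that mostly bind a copy of themselves or a family neighbor on the next cell, and they signal through small SH2-domain adaptors of the SAP family. In mice most of their genes sit side by side, here Cd244 to Slamf6 in places 3 to 9 after F11r among measured genes. Slamf9 and Slamf8 lie apart from these, in places 23 and 28. The Slam genes are known to vary between inbred strains. The other neighbors range from Usf1, a helix-loop-helix transcription factor, and Nectin4, an adhesion receptor of epithelia, to Sdhc of mitochondrial complex II, the peroxisomal import factor Pex19 and the muscle calcium-store protein Casq1.

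RNA of each tumor was measured on 1 Affymetrix array, and the deposited values are log2 expression after RMA, in which a difference of 1 is a doubling. The array medians were 6.27, 6.25 and 6.23 for JAM-A-/- and 6.3, 6.34 and 6.28 for JAM-A+/+. The spread differed more, with interquartile ranges of 3.41, 3.61 and 3.74 for JAM-A-/- and 3.27, 3.5 and 3.53 for JAM-A+/+. Tumor 5347 was the widest and tumor 5369 the narrowest. F11r itself (probe set 10351623) measured 5.91, 5.55 and 6.53 in the JAM-A-/- tumors, against 10.1, 10.23 and 10.47 in JAM-A+/+ tumors. All 3 JAM-A-/- tumors were far below all 3 JAM-A+/+ tumors, with a mean difference of -4.27 (SE 0.24, 19.3-fold lower), which was the only 1 of 35557 probe sets (0.00281%) with an adjusted p under 0.05 in limma (adjusted p = 0.00667). Markers of luminal epithelium (Krt8, Krt18, Krt19, Epcam and Cdh1), the epithelial cells of mammary tumors, averaged 11.47 to 12.05 in JAM-A-/- tumors and 11.37 to 11.71 in JAM-A+/+ tumors.

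Around the deleted gene, 5 of the 42 measured neighbors were higher in JAM-A-/- tumors by the criteria used here (fold of at least 1.3, that is 0.38 on the log2 scale, and p under 0.05 in limma before adjustment), and none was lower. The thresholds were read from the study's signature list, whose test is not given in the sources used here. They were Pex19, Igsf8, Usf1, Nectin4 and Sdhc, with folds of 1.34 to 1.53. This was 11.9% of the neighbors, where 5.32% of all 19937 genes other than F11r met the criteria in either direction, 4.73% higher and 0.587% lower. Over all 35557 probe sets, many of which have no listed gene, 8.3% met them, 3.95% higher and 4.35% lower. None of the 42 had an adjusted p under 0.05 (smallest 0.323, for Pex19), so no single neighbor passed correction for the number of probe sets. In 9 neighbors the tumor groups did not overlap, all of them higher in JAM-A-/- tumors, which is 21.4%, against 12.4% of all genes in that direction and 15% in either. Without tumor 5333, 11 neighbors met the criteria, and without tumor 5347, 2 did. With 3 tumors against 3, an exact permutation test of a single gene cannot go below a p of 0.1.

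The values leaned upward on both sides of F11r, as they did over all genes with a single-symbol probe set. Of the 42 neighbors, 33 had a difference above 0, which is 78.6% against 71.8% of all genes, and their median difference was 0.21 against 0.09 for all genes. The 18 before F11r had a median of 0.27, with 3 meeting the criteria, and the 24 after it had a median of 0.17, with 2 meeting them. The 9 Slam family genes had a median of 0.05 and none met the criteria, while the 33 other neighbors had a median of 0.26 and 28 of them were above 0. The Slam genes were also dimmer, averaging 5.30 to 5.62 in JAM-A-/- tumors where the other neighbors averaged 7.66 to 7.98. Measured against genes of a similar mean level, the medians were -0.02 for the Slam genes and 0.08 for the others. The 4 unlisted genes in between differed by 0.03 (Alyref2), 0.41 (Atp1a4), 0.23 (Igsf9) and 0.12 (Cfap45), and none met the criteria. Atp1a4 passed the fold threshold but not the p threshold.

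**Figure D1:**
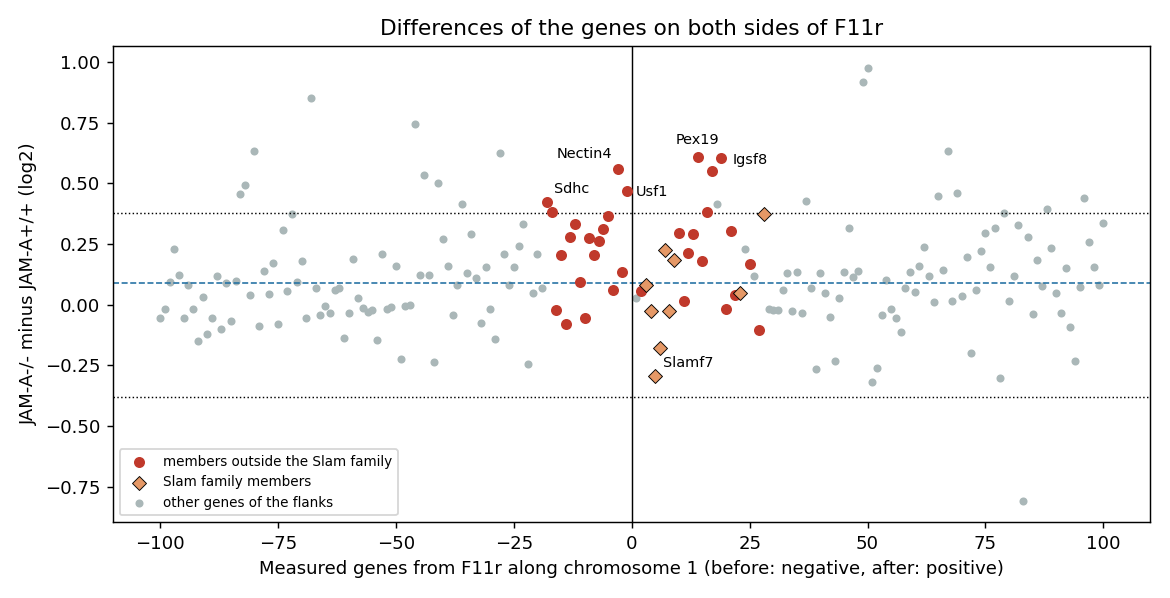
Difference between JAM-A-/- and JAM-A+/+ tumors (log2, vertical axis) for the 100 measured genes on each side of F11r in chromosome order (horizontal axis, F11r at 0 and not drawn), with the neighbors of the list in red, the Slam family as orange diamonds and other genes in grey. Dotted lines mark the fold threshold of 1.3 and the dashed line the median of all genes (0.09), and the Slam genes run from -0.29 to 0.37, while above the upper line stand the 5 neighbors that met the criteria and Casq1, Pea15a and Pcp4l1, which missed the p threshold.

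The 5 nearest measured neighbors on each side of F11r gave different counts. Among the 5 nearest measured neighbors before it, 2 met the criteria (Usf1 and Nectin4) and the median difference was 0.37. Among the 5 nearest after it (Itln1, Cd244, Ly9, Slamf7 and Cd48), none met them and the median was -0.03. Of all genes, 5.32% met them. The sides also differed in level, with averages in JAM-A-/- tumors of 7.74 to 8.15 before F11r and 5.03 to 5.27 after it. Measured against genes of a similar mean level, the medians were 0.17 and -0.05. The sides themselves were not tested against each other.

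Usf1, the nearest measured gene before F11r, encodes a transcription factor that binds E-box DNA and is present in most cell types. Its values (probe set 10351616) were 8.11, 8.01 and 8.41 in JAM-A-/- tumors and 7.54, 7.77 and 7.81 in JAM-A+/+ tumors. Every JAM-A-/- tumor was above every JAM-A+/+ tumor, and the difference was 0.47 (SE 0.15, adjusted p = 0.372). Without tumor 5347 it was 0.35, below the fold threshold. Arhgap30, the next gene out, measured 6.7, 6.94 and 7.08 in JAM-A-/- tumors against 6.45, 6.95 and 6.92 in JAM-A+/+ tumors. These groups overlapped, with a difference of 0.13 (SE 0.17, adjusted p = 0.799).

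Nectin4, in the third place before F11r, is an immunoglobulin-type adhesion receptor found on mammary and skin epithelium. Its values (probe set 10351588) were 9.45, 9.92 and 10.22 in JAM-A-/- tumors and 9.06, 9.39 and 9.46 in JAM-A+/+ tumors. The lowest JAM-A-/- tumor lay just below the highest JAM-A+/+ tumor, so the groups overlapped although the mean differed by 0.56 (SE 0.21, adjusted p = 0.423). The call was lost when tumor 5346, 5347 or 5369 was left out (0.53, 0.38 and 0.44) and in tests without moderation of the variance. Of its partners at nectin-based junctions (Nectin1, Nectin2, Nectin3, Afdn and Pvr), none of 5 met the criteria, and their median was -0.09.

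Klhdc9, a kelch-repeat gene, measured 5.39, 5.57 and 5.69 in JAM-A-/- tumors and 5.5, 5.39 and 5.58 in JAM-A+/+ tumors, with a difference of 0.06. Pfdn2, a subunit of the prefoldin chaperone that hands unfolded actin and tubulin to the chaperonin, measured 9.04, 9.25 and 9.33 in JAM-A-/- tumors and 8.63, 8.88 and 9.01 in JAM-A+/+ tumors. Its groups did not overlap, and its difference of 0.37 (SE 0.14, adjusted p = 0.434) passed the p threshold and stayed below that of the fold. Of the 5 other prefoldin subunits, Pfdn6 was higher by the criteria (0.42, adjusted p = 0.41), but not after quantile normalization over listed probe sets (0.27), a rescaling of the probe sets annotated with a gene, and the median of the 5 was -0.03.

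On the other side, the nearest listed neighbor after F11r was Itln1, a lectin of the gut epithelium, at 3.86, 4.02 and 3.9 in JAM-A-/- tumors and 3.96, 3.76 and 3.89 in JAM-A+/+ tumors. Its difference was 0.06 (SE 0.12, adjusted p = 0.876). The next 4 were Slam family genes, described below.

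Igsf8 encodes a surface immunoglobulin protein that associates with tetraspanins. Its values (probe set 10351769) were 7.88, 8.52 and 8.36 in JAM-A-/- tumors and 7.61, 7.6 and 7.74 in JAM-A+/+ tumors. The JAM-A+/+ tumors lay close together and below all JAM-A-/- tumors, and the difference was 0.60 (SE 0.18, adjusted p = 0.343). Vsig8, another immunoglobulin-domain gene, lay near the far end of the list and differed by -0.10 (adjusted p = 0.748).

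The promoters of the neighbors were read from RefSeq windows that run from 250 bases before to 50 bases after a start site (GRCm38.p6), which were found for 37 of the 43 genes in 44 windows. For the neighbors that met the criteria, windows of Usf1, Igsf8 and Nectin4 are shown with each CG dinucleotide in capitals, for comparison with the CG-poor windows of the Slam genes. The window of Usf1 shown, the later of its 2, is chr1:171411431-171411730 (plus strand, 30 CG, 72% G and C), that of Igsf8 is chr1:172312117-172312416 (plus strand, 25 CG, 74.3%) and that of Nectin4 is chr1:171369923-171370222 (plus strand, 3 CG, 53.3%).
Usf1: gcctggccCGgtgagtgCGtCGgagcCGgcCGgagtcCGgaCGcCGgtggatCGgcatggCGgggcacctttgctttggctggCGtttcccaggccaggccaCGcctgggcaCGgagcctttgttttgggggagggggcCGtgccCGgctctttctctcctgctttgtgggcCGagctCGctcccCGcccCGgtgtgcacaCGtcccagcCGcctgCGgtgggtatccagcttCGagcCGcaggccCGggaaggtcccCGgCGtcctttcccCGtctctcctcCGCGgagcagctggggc
Igsf8: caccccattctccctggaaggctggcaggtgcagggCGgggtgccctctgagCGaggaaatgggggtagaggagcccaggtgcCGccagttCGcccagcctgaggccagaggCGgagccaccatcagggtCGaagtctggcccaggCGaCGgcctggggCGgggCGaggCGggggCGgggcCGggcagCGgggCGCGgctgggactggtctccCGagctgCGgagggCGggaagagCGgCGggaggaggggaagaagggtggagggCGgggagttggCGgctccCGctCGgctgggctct
Nectin4: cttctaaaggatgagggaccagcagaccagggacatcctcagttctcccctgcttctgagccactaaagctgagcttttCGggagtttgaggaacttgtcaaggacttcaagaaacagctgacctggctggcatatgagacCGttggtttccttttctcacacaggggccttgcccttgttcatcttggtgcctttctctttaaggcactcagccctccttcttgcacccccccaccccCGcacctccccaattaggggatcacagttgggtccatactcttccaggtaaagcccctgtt

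Pex19, a cytosolic receptor that brings membrane proteins to peroxisomes, had the largest difference of the 42. Its values (probe set 10351738) were 9.13, 9.48 and 9.69 in JAM-A-/- tumors and 8.73, 8.78 and 8.96 in JAM-A+/+ tumors. The groups did not overlap, with a difference of 0.61 (SE 0.16, adjusted p = 0.323). Pex3, Pex13, Pex14 and Pex16, which act with it at the peroxisome membrane, were each above 0 (0.22 to 0.37), and none of the 4 met the criteria.

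Sdhc, a membrane anchor of succinate dehydrogenase in mitochondria, is the outermost listed gene before F11r. It measured 9.93, 10.08 and 10.49 in JAM-A-/- tumors and 9.55, 9.78 and 9.9 in JAM-A+/+ tumors (probe set 10360046). The lowest JAM-A-/- tumor was only slightly above the highest JAM-A+/+ tumor, and the difference was 0.42 (SE 0.17, adjusted p = 0.447). Of the 5, it was the closest above the fold threshold, and its call was lost when tumor 5346, 5347, 5369 or 5370 was left out (0.47, 0.26, 0.33 and 0.44). The other genes of complex II and its assembly (Sdha, Sdhb, Sdhd, Sdhaf1 and Sdhaf2) were above 0 in 5 of 5 cases (4 after quantile normalization over listed probe sets), with a median of 0.27, and none met the criteria.

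**Figure D2:**
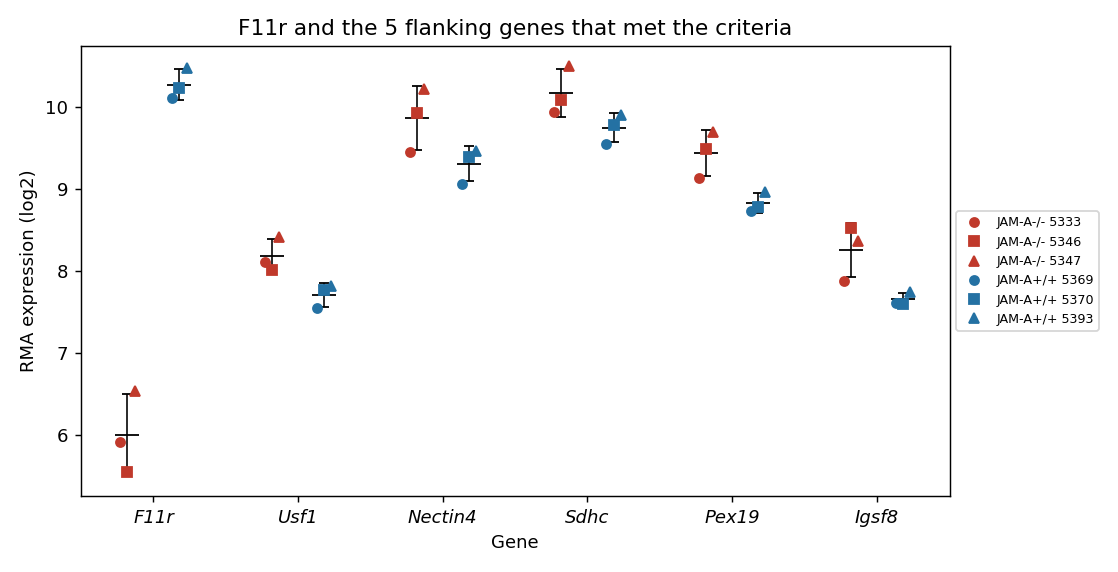
Expression (RMA, log2, vertical axis) of F11r and the 5 neighbors that met the criteria, with a symbol for each tumor, JAM-A-/- in red on the left and JAM-A+/+ in blue on the right of each gene, and black bars for mean and SD (n = 3). F11r is far lower in JAM-A-/- tumors, while the neighbors are higher there by 0.42 to 0.61, with overlap only in Nectin4.

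The remaining genes of organelles and membrane traffic did not meet the criteria. Copa, a subunit of the coatomer coat of Golgi vesicles, differed by 0.29 (adjusted p = 0.511), and Ncstn, the nicastrin subunit of gamma-secretase, by 0.21 (adjusted p = 0.625). Tomm40l, a mitochondrial import channel protein, differed by 0.21, B4galt3, a Golgi galactosyltransferase, by 0.09, Pigm, an enzyme of GPI-anchor synthesis, by 0.04, and Ppox, which makes protoporphyrin for heme, by -0.05. The other coatomer genes (0 of 8) and heme synthesis genes (0 of 6) had no member meeting the criteria, with medians of 0.21 and 0.25, and of the 4 other gamma-secretase genes Psen2 did (0.44, adjusted p = 0.41), but not after quantile normalization over listed probe sets (0.33).

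The genes of protein modification and turnover were all above 0, except that Dcaf8 became -0.04 after quantile normalization over listed probe sets, and none met the criteria. Usp21, a deubiquitinase, differed by 0.28, Dedd, a death-effector-domain protein, by 0.26, Ufc1, the conjugating enzyme for the ubiquitin-like protein Ufm1, by 0.21, and Dcaf8, a substrate receptor of Cul4 ubiquitin ligases, by 0.18. The 4 measured partners of Ufc1 in Ufm1 conjugation had a median of 0.16, and none met the criteria.

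Among the genes of polarity, ion channels and calcium, Casq1 had a large difference but did not meet the criteria. This calsequestrin, which holds calcium in the sarcoplasmic reticulum of skeletal muscle, measured 6.05, 6.88 and 6.52 in JAM-A-/- tumors and 5.88, 6.31 and 5.61 in JAM-A+/+ tumors. The groups overlapped, and the difference was 0.55 (SE 0.25, adjusted p = 0.473). The 7 skeletal muscle markers (Acta1, Ckm, Myh4, Myh1, Tnnt3, Mylpf and Atp2a1) deviated from their own means, on average, by -0.08, 0.90 and 0.52 in JAM-A-/- tumors and by -0.44, 0.34 and -1.24 in JAM-A+/+ tumors. Casq1 was highest and lowest in the same tumors as these markers (5346 and 5393), 2 of the 7 met the criteria (Acta1 at 1.31 and Myh1 at 1.29, Myh1 alone after quantile normalization over listed probe sets), and their part in the Casq1 value was not tested.

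Vangl2, a membrane protein of planar cell polarity, measured 7.2, 7.12 and 7.23 in JAM-A-/- tumors and 6.59, 7.04 and 7.03 in JAM-A+/+ tumors, with no overlap and a difference of 0.30 (SE 0.15, adjusted p = 0.507). Of 12 other planar polarity genes, Dvl2 met the criteria (0.45, adjusted p = 0.373), and the median was 0.05. After quantile normalization over listed probe sets Dvl2 no longer met them (0.33), Celsr2 met them in the lower direction (-0.43), and the median was -0.05. The inward rectifier potassium channel gene Kcnj10 measured 6.08, 5.92 and 6.07 in JAM-A-/- tumors and 5.76, 5.71 and 5.69 in JAM-A+/+ tumors. Its groups did not overlap, and its difference of 0.30 (SE 0.11, adjusted p = 0.413) passed the p threshold but not the fold. Its neighbor Kcnj9, of the same channel family, differed by -0.02. Kcnj10 is known from glia. Of 2 measured Schwann cell markers, S100b met the criteria (0.97) and Sox10 did not (0.12, or -0.10 after quantile normalization over listed probe sets). Sox10 was bright, at 9.6 to 10.33 over the 6 tumors, and which cells gave its signal was not tested. S100b overlapped between the groups and was highest in tumor 5346, whereas Kcnj10 was highest in tumor 5333. The part of such cells in the Kcnj10 value was not tested.

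The Slam family was the largest group on the list with a shared function, and its 9 genes showed no common direction. Differences ran from -0.29 (Slamf7) to 0.37 (Slamf8), 5 were above 0 (4 after quantile normalization over listed probe sets), and the median of 0.05 lay close to the 0.09 of all genes. F11r, although deleted in JAM-A-/- tumors, still read 5.55 to 6.53 there, and of the 9 Slam genes only Slamf9 exceeded 6.53 in any tumor. Whether the other Slam genes stood above background was not tested. In whole tumors, fewer cells of a type and less RNA per cell cannot be told apart.

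Slamf8, a receptor of macrophages that lacks the adaptor-binding tail of most of the family, was the only Slam gene whose groups did not overlap. It measured 5.4, 5.59 and 5.63 in JAM-A-/- tumors and 5.33, 5.15 and 5.02 in JAM-A+/+ tumors. The difference was 0.37 (SE 0.13, adjusted p = 0.406), just under the fold threshold of 0.38, so among neighbors past the p threshold it is the one nearest outside the criteria. Slamf7, a receptor of plasma cells and NK cells, had the lowest difference of the 42. Its values were 4.61, 4.18 and 4.6 in JAM-A-/- tumors and 4.57, 4.89 and 4.81 in JAM-A+/+ tumors. These overlapped, and the difference was -0.29 (SE 0.16, adjusted p = 0.527).

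The other 7 Slam genes overlapped between the groups, and none passed the p threshold. Cd48, a GPI-anchored ligand carried by nearly all leukocytes, measured 5.97, 6.19 and 6.3 in JAM-A-/- tumors and 6.04, 6.53 and 6.43 in JAM-A+/+ tumors, a difference of -0.18 (SE 0.16). Its receptor Cd244, of NK cells and other cytotoxic cells, measured 5.43, 5.11 and 5.58 in JAM-A-/- tumors and 5.39, 5.16 and 5.33 in JAM-A+/+ tumors, a difference of 0.08 (SE 0.15). The receptor and its ligand thus had differences of opposite sign, but neither could be told from 0 (adjusted p in limma 0.703 for Cd48 and 0.866 for Cd244).

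The self-binding receptors of lymphocytes and myeloid cells had similarly small differences. Slamf1 differed by 0.23 (SE 0.17), Slamf6 by 0.18 (SE 0.13), Cd84 by -0.03 (SE 0.13) and Ly9 by -0.03 (SE 0.12). Slamf9, a family member of myeloid cells, measured 7.19, 7.08 and 7.5 in JAM-A-/- tumors and 7.05, 7.25 and 7.32 in JAM-A+/+ tumors, a difference of 0.05 (SE 0.15).

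**Figure D3:**
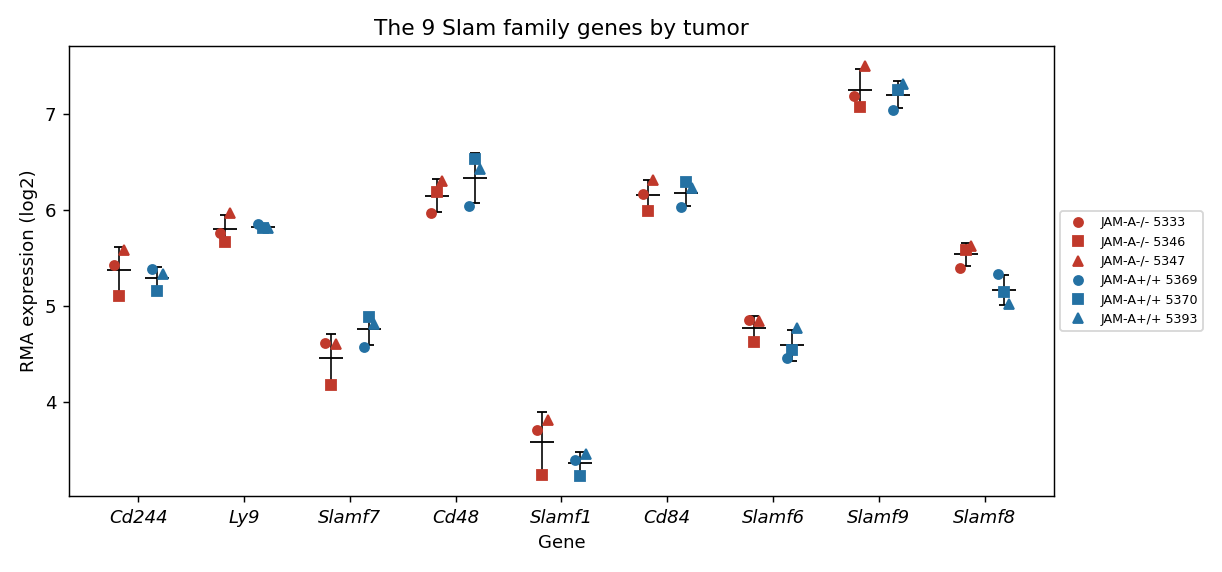
Expression (RMA, log2, vertical axis) of the 9 Slam family genes in chromosome order, with a symbol for each tumor, JAM-A-/- in red on the left and JAM-A+/+ in blue on the right of each gene, and black bars for mean and SD (n = 3). The groups overlap in every gene except Slamf8, and levels of different genes come from different probes and are not comparable.

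The 8 Slam family windows held 1 to 7 CG, with a median of 3.5, where the 36 windows of the other neighbors held 0 to 43, with a median of 9.5, and all 32851 windows of the table had a median of 7. The E-box CACGTG, which reads the same on both strands and is the sequence that Usf1 protein is known to bind, was then searched. It was found in 4 of the 44 windows of the neighbors (9.09%) and in 2349 of all windows (7.15%). The windows that held it were those of Cd244, Slamf9 and Slamf8 in the Slam family (3 of 8) and of Nr1i3 outside it (1 of 36), and none of the 4 windows of neighbors that met the criteria held it. Those 4 windows belong to Usf1, Igsf8 and Nectin4, whereas Pex19 and Sdhc had no window and were not searched. The Slam windows are shown with the E-box in capitals, since they pair a sequence bound by Usf1 with genes near it. The motif lies 64 bases before the start site in Cd244 (chr1:171558943-171559242, plus strand), 204 before it in Slamf9 (chr1:172475110-172475409, plus strand) and 157 before it in Slamf8 (chr1:172590519-172590818, minus strand). Such a match is a description of the letters, and binding was not measured.
Cd244: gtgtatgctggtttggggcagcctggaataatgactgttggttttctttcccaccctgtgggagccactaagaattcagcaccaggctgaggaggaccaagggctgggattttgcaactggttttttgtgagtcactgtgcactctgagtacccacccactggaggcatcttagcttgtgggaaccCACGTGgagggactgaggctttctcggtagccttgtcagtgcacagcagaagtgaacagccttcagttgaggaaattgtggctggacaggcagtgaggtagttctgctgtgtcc
Slamf9: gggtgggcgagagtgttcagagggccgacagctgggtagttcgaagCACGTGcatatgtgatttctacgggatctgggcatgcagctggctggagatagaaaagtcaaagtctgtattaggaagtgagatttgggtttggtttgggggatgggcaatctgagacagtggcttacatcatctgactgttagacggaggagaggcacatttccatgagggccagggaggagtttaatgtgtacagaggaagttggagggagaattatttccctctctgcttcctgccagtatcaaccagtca
Slamf8: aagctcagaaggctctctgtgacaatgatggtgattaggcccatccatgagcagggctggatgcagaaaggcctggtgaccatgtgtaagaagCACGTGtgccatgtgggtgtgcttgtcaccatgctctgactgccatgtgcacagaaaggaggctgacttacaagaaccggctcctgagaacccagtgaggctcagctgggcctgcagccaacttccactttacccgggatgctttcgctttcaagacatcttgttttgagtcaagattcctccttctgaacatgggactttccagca

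Among these 3 genes with an E-box, Slamf8 differed by 0.37, Cd244 by 0.08 and Slamf9 by 0.05, and Nr1i3, which also holds it, by -0.02. The 5 Slam genes with a window but no match (Slamf7, Cd48, Slamf1, Cd84 and Slamf6) ran from -0.29 to 0.23. Whether the motif goes with the difference was not tested.

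Markers of the cells that carry Slam receptors did not meet the criteria either. For genes common to all leukocytes (Ptprc, Laptm5 and Coro1a), 0 of 3 met the criteria, and their mean level was 7.95 to 8.58 in JAM-A-/- tumors and 8.09 to 8.68 in JAM-A+/+ tumors. All 3 differed by less than 0, where 71.8% of all genes were above 0. Their median was -0.02, or -0.17 after quantile normalization over listed probe sets. None of 6 T cell, 6 NK cell, 4 B cell, 3 plasma cell, 6 macrophage, 5 dendritic cell or 6 mast cell markers met them, with medians of -0.09 to 0.14. The T, NK, B and plasma cell lists were dim, averaging 5.67 or less in every tumor, and whether they stood above background was not tested. Kit read 10.45 to 11.37, where no other mast cell marker passed 6.04, and which cells gave the Kit signal was not tested. Of 4 endothelial markers, Pecam1 met the criteria (0.60). The range between tumors of a group was wide for macrophage markers, which averaged 7.99 to 8.63 in JAM-A-/- tumors and 7.93 to 8.6 in JAM-A+/+ tumors. The 9 Slam genes together deviated from their own means by 0.02, -0.14 and 0.18 in JAM-A-/- tumors and by -0.09, -0.01 and 0.03 in JAM-A+/+ tumors.

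Of 8 genes that act with Slam receptors, 2 were higher in JAM-A-/- tumors by the criteria and none was lower, where 4.73% of all genes were higher. They were Fyn, the Src-family kinase that the adaptor SAP recruits (0.49, SE 0.16, adjusted p = 0.39), and Ptpn6, the phosphatase SHP-1 (0.38, SE 0.15, adjusted p = 0.432). Neither met the criteria after quantile normalization over listed probe sets, at 0.38 for Fyn (just under the fold threshold) and 0.24 for Ptpn6. Both are also expressed outside the Slam-bearing cells. Sh2d1a, which encodes SAP, differed by 0.31 without reaching the fold, at 4.48, 4.39 and 4.6 in JAM-A-/- tumors and 4.02, 4.25 and 4.26 in JAM-A+/+ tumors. The other 5 overlapped between the groups.

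Fcer1g, the common gamma chain that Fc receptors and several activating receptors share, is the immune neighbor before F11r. It measured 8.09, 8.24 and 8.68 in JAM-A-/- tumors and 7.67, 8.31 and 8.19 in JAM-A+/+ tumors. The groups overlapped, with a difference of 0.28 (SE 0.22, adjusted p = 0.646), and of its 7 partners (Fc receptor chains and Syk) 7 were above 0 (6 after quantile normalization over listed probe sets) and none met the criteria.

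**Figure D4:**
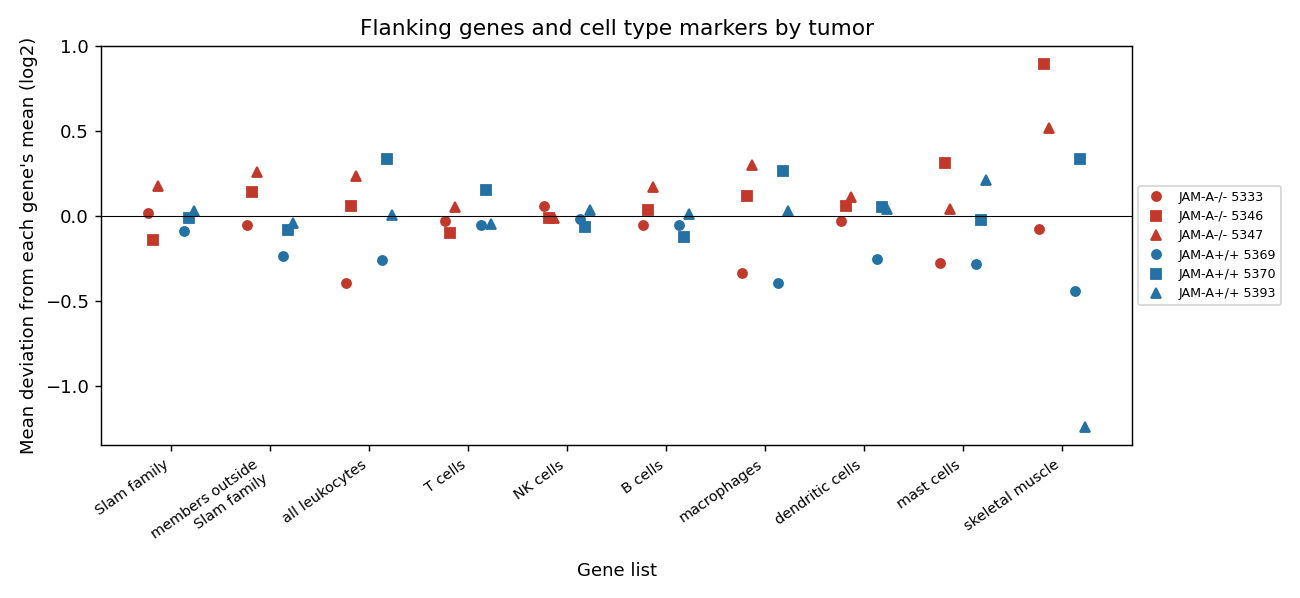
Mean deviation of each gene list from its genes' own means over the 6 tumors (log2, vertical axis) for the Slam family, the other neighbors and 8 lists of cell type markers (horizontal axis), with a symbol for each tumor, JAM-A-/- in red on the left and JAM-A+/+ in blue on the right. The neighbors outside the Slam family lie higher in JAM-A-/- tumors on average (-0.05, 0.15 and 0.26 against -0.23, -0.08 and -0.04), but tumor 5333 lies just below tumor 5393. All genes together, which are not drawn, gave -0.03, 0.05 and 0.13 against -0.11, -0.04 and -0.01. The groups also overlap in the Slam and leukocyte lists, and skeletal muscle varies most.

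The transcription factor genes other than Usf1 and the remaining neighbors did not meet the criteria. Nr1i3, the xenobiotic receptor CAR of the liver, differed by -0.02, and Nhlh1, a neuronal helix-loop-helix factor, by 0.02. Nit1, an amidase that clears a damaged form of glutathione, measured 8.35, 8.47 and 8.55 in JAM-A-/- tumors and 8.21, 8.13 and 8.1 in JAM-A+/+ tumors, which do not overlap, with a difference of 0.31 (SE 0.11, adjusted p = 0.415) that passed the p threshold and missed the fold. Pea15a, an adaptor that holds ERK in the cytoplasm, differed by 0.38, Pcp4l1, related to a calmodulin-binding protein of Purkinje cells, by 0.38, and Adamts4, a protease of aggrecan and other proteoglycans, by 0.33, and none of the 3 passed the p threshold. Tagln2, an actin-binding protein, differed by 0.17 and Apoa2, an apolipoprotein of the liver, by -0.08. For Apoa2, 3 hepatocyte markers (Alb, Apoa1 and Ttr) had 0 members meeting the criteria and a median of -0.36.

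Some neighbors overlap each other on the chromosome, in 6 pairs. The differences were 0.21 and 0.29 for Ncstn with Copa, 0.26 and 0.31 for Dedd with Nit1, and 0.31 and 0.37 for Nit1 with Pfdn2. They lay farther apart in the other 3 pairs, at 0.37 and 0.06 for Pfdn2 with Klhdc9, -0.02 and 0.21 for Nr1i3 with Tomm40l, and 0.21 and -0.08 for Tomm40l with Apoa2. Which probes lie in the shared stretches is not given in the sources used here, and whether a pair shares signal was not tested.

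The upward lean of the neighbors went with the brightness of the genes. Over all genes in 5 equal classes of mean level, the median difference was 0.06, 0.02, 0.07, 0.13 and 0.20, lowest class first. The 42 neighbors fell 6, 7, 9, 9 and 11 into these classes, and the 5 that met the criteria all lay in the upper 2. Measured against the median of its own class, the median neighbor differed by 0.07, Pex19 by 0.41, Igsf8 by 0.48, Nectin4 by 0.36, Usf1 by 0.34 and Sdhc by 0.23.

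After quantile normalization over the probe sets that the annotation lists with a gene, which took the median of all genes to 0.00, Igsf8 (0.49, adjusted p = 0.397) and Pex19 (0.45, adjusted p = 0.391) still met the criteria. Usf1 (0.36), Nectin4 (0.37) and Sdhc (0.22) no longer did, Usf1 and Nectin4 through the fold alone. This left 2 of 42 neighbors, both higher, where 3.32% of all genes met the criteria in either direction and 1.8% in the higher direction. The neighbors' median became 0.08, and 28 of 42 were above 0, against 50.6% of all genes. Slamf7 stayed lowest at -0.32 and Slamf8 stood at 0.34.

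**Figure D5:**
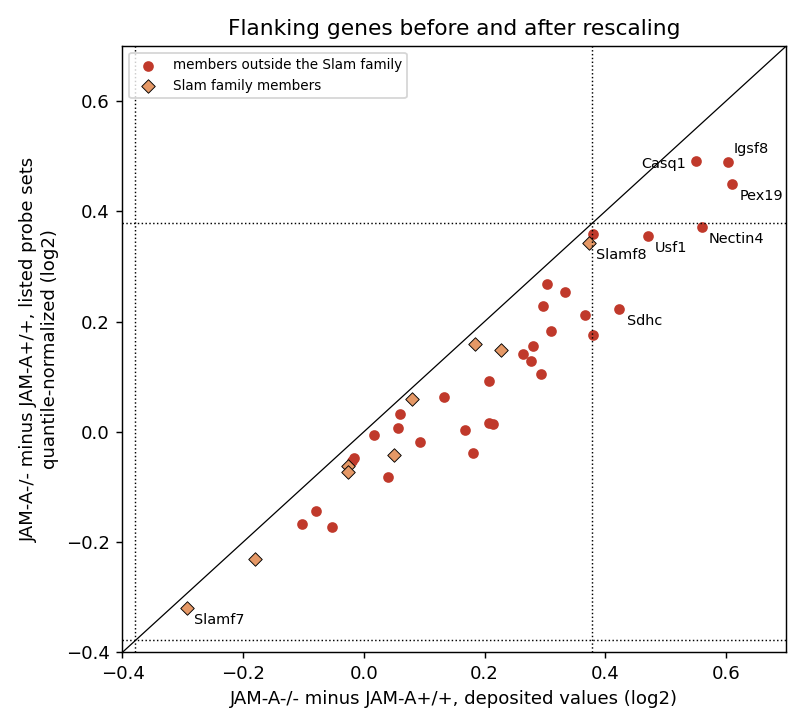
Difference between JAM-A-/- and JAM-A+/+ tumors (log2) of the 42 neighbors in the deposited values (horizontal axis) and after quantile normalization over listed probe sets (vertical axis), with the Slam family as orange diamonds, equality as a solid line and the fold threshold of 1.3 as dotted lines. All points lie below the line, and Igsf8, Pex19 and Casq1 stay above the upper threshold, of which Casq1 missed the p threshold.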

How the data were processed

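The authors deposited 1 table of log2 expression values for 35557 probe sets in 6 tumors, which the submitters' processing notes credit to RMA and to Affymetrix Expression Console 1.1. RMA gives all arrays a common probe distribution, and a deposited log2 value therefore says nothing of total RNA. The spread of the deposited probe set values still differed between arrays. RMA settings, probe set filters and array batches were not given in the sources used here. The number of arrays limits the precision.

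From these values, differences (JAM-A-/- minus JAM-A+/+), standard errors and two-sided p-values came from limma 3.58.1 (R 4.3.3), fitted to all 35557 probe sets without covariates, moderated by empirical Bayes and Benjamini-Hochberg adjusted over the whole table. The criteria were a fold of 1.3 or more and p under 0.05 without adjustment. Both thresholds were read from the study's signature list, and limma was chosen here, since the test behind that list is not given in the sources used here. A single gene symbol was annotated for 21789 probe sets and several for 1621, and 12147 were not listed. For genes with several probe sets the one with the highest mean was used. RefSeq (GRCm38.p6) served for names, gene order and promoter windows. The fit was also run on simulated data with known folds and independent noise, which held no differences in scale between arrays.

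The neighbors, partner lists, cell type markers and tests were chosen with earlier results of these data known. The text names F11r, every neighbor that met the criteria, the 5 nearest on each side, the 9 Slam genes, the differences of all other neighbors, and of every other list at most 4 genes meeting the criteria (smallest p first). Sh2d1a and the values of list members beyond this rule were named after their values were seen. The alternatives were other scalings, array weights, other tests and thresholds, leaving out dim probe sets and leaving out each tumor.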

Additional observations from a re-analysis of the deposited data

How the results depend on the processing

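No paired analysis was possible because the litter of each tumor is not given in the sources used here. The 5 neighbors meeting the criteria became 3 with an equal-variance test, 2 with a Welch test, 2 with quantile normalization over listed probe sets, 10 after centring each array on its median, 2 at a fold of 1.5 and 9 with no fold threshold. Leaving out each tumor in turn gave 2 to 11, with 11 without tumor 5333 and 2 without tumor 5347. Pex19 met the criteria in all 13 of these refits that changed the scaling, the test, the weights, the probe sets or the tumors, Igsf8 in all but the Welch test, and Usf1, Nectin4 and Sdhc lost the call in 3, 7 and 9 of them. Without tumor 5347, Nectin4 differed by 0.38, Usf1 by 0.35 and Sdhc by 0.26, and without tumor 5369 Nectin4 differed by 0.44 and Sdhc by 0.33.

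Of the Slam family, 1 met the criteria with quantile normalization between arrays, after centring and with no fold threshold (Slamf8 each time), 2 did with array weights (Slamf8 and Slamf7, in opposite directions), and 0 to 1 did when a tumor was left out. Slamf8 met them without tumor 5333 (0.44) and without tumor 5369 (0.46), and Slamf1 without tumor 5346. The median difference of the neighbors stayed between 0.08 and 0.28. F11r kept its difference of about -4 throughout (-4.54 to -4.05 when a tumor was left out), but its adjusted p was 0.453 with an equal-variance test and 0.735 with a Welch test, both at a difference of -4.27, and 0.0036 to 0.084 when a tumor was left out (above 0.05 without tumor 5333, 5369, 5370 or 5393).

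The 2952 probe sets meeting the criteria became 1471 with an equal-variance test, 1082 with a Welch test, 817 with quantile normalization over listed probe sets (which tests fewer probe sets) and 1274 at a fold of 1.5, and 2040 to 5016 when a tumor was left out (5016 without tumor 5333). The cause of these shifts was not tested. Taking each difference relative to the median of its level class was added after seeing the data. Using the mean over probe sets changed nothing, since each neighbor has 1. With 3 arrays a group, differences of the size of most neighbors could not be told from the spread between tumors.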

Other observations

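Farther out on chromosome 1, genes beyond the listed neighbors also met the criteria. Of the 200 measured genes within 100 of F11r on either side, the neighbors included, 19 were higher and 1 was lower (10%, against 5.32% of all genes). Of the 82 that lie before the neighbors, 7 were higher (8.54%), with Uck2, a uridine-cytidine kinase, at 9.96, 9.93 and 9.81 in JAM-A-/- tumors and 8.89, 9.34 and 9.24 in JAM-A+/+ tumors (difference 0.74, SE 0.15, adjusted p = 0.231). Of the 72 that lie after the neighbors, 7 were higher and 1 was lower (11.1%). The interferon-inducible gene Ifi203 measured 6.53, 7.12 and 7 in JAM-A-/- tumors and 5.75, 6.06 and 6.09 in JAM-A+/+ tumors (0.92, SE 0.18, adjusted p = 0.235), and Catspere2, a sperm ion channel gene, was the lower one (-0.81, SE 0.21, adjusted p = 0.313).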
